A study of Mus musculus with 18 samples.

Results

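The 2 Dnmt1 KO libraries of day 11 were compared with the 2 Dnmt1 KO libraries of day 9, to ask whether the methylation left in these cells was constant over the genome or whether gains and losses cancelled. These 4 libraries, chosen by the genotype and day in their labels, belong to a whole-genome bisulfite sequencing series of 18 libraries from mouse embryonic stem cells (ESCs), with 9 Dnmt1 KO and 9 control libraries from days 1, 3, 6, 9 and 11. The genotype was labelled Dnmt1 KO or Wildtype, and the strain E14 in all 18, whereas the study's methods describe the floxed Dnmt1 cells as C57BL/6, so a difference from control can include a difference between lines. In Dnmt1 KO, the gene had been deleted by an inducible Cre recombinase, and the days count from that deletion, so that the day 9 and day 11 cells share the genotype and the treatment and differ in time in culture. The libraries of a day are described as biological replicates, and whether the numbers 1 and 2 link a day 9 library to a day 11 library was not settled.

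Dnmt1 is the maintenance methyltransferase: it copies the methylation of a CpG onto the new strand after replication, and without it methylation is diluted at each cell division. Dnmt3a and Dnmt3b, the de novo methyltransferases, can place methyl groups on sites that carried none, and ESCs express both. ESCs without Dnmt1 are known to keep a low level of CpG methylation, which is generally ascribed to these enzymes, while CpG islands, the CpG-dense stretches at many promoters, are largely unmethylated in ESCs with or without Dnmt1.

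Each read over a CpG gave 1 call, methylated or unmethylated, and a set of CpGs is given by its level, the methylated calls as a percent of all its calls. The day 9 libraries held 8209923 and 7190722 calls and the day 11 libraries 8958853 and 9242453, at 1.2 to 1.23 calls per covered cytosine, so single CpGs were not compared. Over the mitochondrial genome, used as a measure of unconverted cytosines, 0.376% and 0.467% of CpG calls were methylated at day 9 and 0.446% and 0.433% at day 11, which overlap. The deletion was visible in the reads. From exon 4 to exon 5 of Dnmt1 (chromosome 9, 20744920 to 20746027, NCBIM37, 20 CpGs), the 4 libraries had 0 calls each, against 6, 3, 12 and 3 in the control libraries of the same days, and they had 259 to 385 calls over the rest of the gene.

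The autosomal CpG level did not differ detectably between the days. It was 24.5% and 25.6% in the 2 libraries of day 9 and 24.2% and 24.7% in those of day 11. The days overlapped, with day 11 replicate 2 above day 9 replicate 1. The means were 25.1% ± 0.745 (SD, n = 2) and 24.5% ± 0.364 (SD, n = 2), a difference of -0.584 points (exact permutation test, two-sided, p = 0.667, where 2 against 2 libraries cannot go below 0.333). In a limma fit of the levels of 56 sets of CpGs over all 18 libraries, the standard error of this difference was 0.89 points, the 95% interval ran from -2.38 to 1.22 points, and the Benjamini-Hochberg adjusted p was 0.927. The single Dnmt1 KO library of day 6 stood at 24.2%.

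Control cells differed between the same days. Their level was 76.8% ± 1.22 (SD, n = 2) at day 9 and 71.4% ± 0.0491 (SD, n = 2) at day 11, a difference of -5.41 points. The difference between the genotypes in day 11 minus day 9 was 4.83 points, with a limma adjusted p of 0.000753, and 54 of the 56 sets (96.4%) passed the same test, while permuting the days within each genotype gave an exact p of 0.278, where 0.0556 is the smallest possible. Relative to their own level, the change was -2.33% in Dnmt1 KO and -7.05% in control, and on a log2 scale none of the 56 sets differed between the genotypes at a limma adjusted p under 0.05 (0%, lowest adjusted p 0.106, 23 or 41.1% at an unadjusted p under 0.05). That count rested on 1 library: without Dnmt1 KO day 9 replicate 2, 7 of the 10 classes of CpG density described next passed on the log2 scale (adjusted p 0.0124 to 0.0477), and without any other of the 4 libraries 0 did.

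CpGs were sorted into 10 classes by CpG density, which here counts the CpGs from 250 bp before to 250 bp after a CpG, including itself. A stretch of 300 bases is shown for the sparse class of 3 to 4 CpGs, for the class of 20 to 24 CpGs at a promoter and away from genes, and for the densest class, because the comparison of days turned on the difference between these surroundings. Capitals mark each CG, and the sequence is the plus strand of NCBIM37.
3 to 4, intron of Nme7, chr1:166263119-166263418: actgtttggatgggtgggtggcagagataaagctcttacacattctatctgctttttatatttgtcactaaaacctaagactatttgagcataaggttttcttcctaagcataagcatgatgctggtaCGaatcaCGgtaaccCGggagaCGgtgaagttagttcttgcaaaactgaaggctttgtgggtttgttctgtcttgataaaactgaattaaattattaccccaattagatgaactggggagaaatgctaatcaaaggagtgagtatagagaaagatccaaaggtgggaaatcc
20 to 24, promoter of Slc35e1, chr8:75016982-75017281: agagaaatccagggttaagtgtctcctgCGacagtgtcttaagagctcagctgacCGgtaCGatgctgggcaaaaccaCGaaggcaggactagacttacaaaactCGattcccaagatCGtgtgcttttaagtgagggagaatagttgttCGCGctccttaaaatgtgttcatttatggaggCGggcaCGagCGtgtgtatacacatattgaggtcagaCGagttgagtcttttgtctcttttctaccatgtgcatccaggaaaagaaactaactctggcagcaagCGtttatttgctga
20 to 24, intergenic, chr13:12952314-12952613: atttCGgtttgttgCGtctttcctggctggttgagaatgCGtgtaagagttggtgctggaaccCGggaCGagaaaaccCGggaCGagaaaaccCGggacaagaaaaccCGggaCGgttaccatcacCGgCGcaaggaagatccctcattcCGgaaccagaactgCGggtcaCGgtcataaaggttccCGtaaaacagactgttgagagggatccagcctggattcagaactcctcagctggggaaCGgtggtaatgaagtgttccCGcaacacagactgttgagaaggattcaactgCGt
35 or more, promoter of Ipo5, chr14:121310014-121310313: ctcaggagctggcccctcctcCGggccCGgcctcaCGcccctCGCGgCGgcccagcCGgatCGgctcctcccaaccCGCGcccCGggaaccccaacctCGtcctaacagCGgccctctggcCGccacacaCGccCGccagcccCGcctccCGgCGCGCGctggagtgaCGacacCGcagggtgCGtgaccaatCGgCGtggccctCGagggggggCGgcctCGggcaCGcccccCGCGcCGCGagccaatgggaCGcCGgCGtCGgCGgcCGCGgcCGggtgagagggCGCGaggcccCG

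These stretches had the deepest coverage of their kind among those outside exons with at most 4 calls per CpG. That limit itself keeps the calls few, so few calls stand behind each of these loci. In the intron of Nme7, which encodes a nucleoside diphosphate kinase family member, the 4 CpGs gave 3 of 10 and 8 of 8 methylated calls at day 9 and 1 of 6 and 7 of 10 at day 11. The days overlapped, and the libraries of a day differed widely. The 13 CpGs of the Slc35e1 promoter gave 0 methylated calls of 23, 19, 22 and 22, and the 45 CpGs of the Ipo5 promoter (Ipo5 encodes a nuclear import receptor) 0 of 22, 31, 43 and 22. Taking 3 calls as the limit that a count of 0 allows, these counts leave room for a level of up to 13.0% to 15.8% at Slc35e1 and 6.98% to 13.6% at Ipo5, counting error only. The 19 CpGs of the intergenic stretch, 60119 bp from the nearest gene start, gave 1 of 21 and 8 of 31 at day 9 and 8 of 23 and 4 of 25 at day 11, and control had 7 of 8, 20 of 20, 4 of 4 and 8 of 9. Of the loci in the class of 20 to 24 CpGs, with 13 and 19 CpGs in the stretch, the promoter held 0 methylated calls in all 4 libraries and the intergenic stretch between 1 and 8. Both promoter stretches also had 0 methylated calls in control, of 37, 0, 3 and 15 calls at Slc35e1 and of 38, 28, 25 and 0 at Ipo5. The stretch at Slc35e1 also lies inside the annotated gene Gm17435.

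Over whole classes and all calls, the level was higher with each step of CpG density up to 10 to 14 CpGs and was lowest in the densest class, in all 4 libraries. Without cytosines of over 20 calls it was highest with 7 to 9 CpGs in all 4, while 10 to 14 stood at 28.2% and 29.1%, then 27.5% and 28.1%, and 15 to 19 at 22.9% and 24.1%, then 21.3% and 22.2%. Among CpGs with no other CpG in the window it was 15.9% and 16.7% at day 9 and 16.3% and 16.9% at day 11. With 2 CpGs it was 18.3% and 19.1%, then 18.6% and 19.1%. With 3 to 4 it was 22% and 22.6%, then 22.2% and 22.7%. In these 3 sparse classes the libraries of the days overlapped, and the differences were 0.285, 0.19 and 0.202 points. With 5 to 6 CpGs the level was 26% and 26.7%, then 26.1% and 26.6%, and with 7 to 9 it was 28.9% and 29.7%, then 28.7% and 29.1%. Both classes overlapped, at differences of 0.0446 and -0.361 points.

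In the classes from 10 CpGs upward, both day 11 libraries lay below both day 9 libraries. With 10 to 14 CpGs the level was 30.1% and 31.5% at day 9 and 29.5% and 30.0% at day 11. With 15 to 19 it was 28.2% and 30.4%, then 27.1% and 27.6%, and with 20 to 24 it was 14.5% and 16.1%, then 12.9% and 13.6%. The differences were -1.03, -1.97 and -2.08 points, and day 9 replicate 2 was the highest of the 4 libraries in each of these classes. Single libraries moved these differences, which ran from -1.71, -3.08 and -2.89 points without day 9 replicate 1 to -0.352, -0.862 and -1.28 points without day 9 replicate 2. With 25 to 34 CpGs the level was 6.55% and 7.26%, then 5.23% and 5.58%, and with 35 or more it was 1.44% and 1.64%, then 1.2% and 1.40%. The differences there were -1.5 and -0.241 points, or -21.7% and -15.7% of the day 9 level. The latter ran from -0.343 points without day 9 replicate 1 to -0.14 points without day 9 replicate 2. Methylated calls on the mitochondrial genome, the measure of unconverted cytosines, were 0.376% to 0.467% in these libraries. Levels were not corrected for them, which weighs most on a relative or log2 change with 35 or more CpGs. For comparison, the day 6 library stood at 14.3% with 20 to 24 CpGs and at 6.02% with 25 to 34, below both day 9 libraries and above both day 11 libraries in each, and so it did with 15 to 19 (27.9%). With 10 to 14 CpGs it stood at 29.9%, between the day 11 libraries, and with 35 or more at 1.03%, below all 4 libraries. Control differed by -18.2%, -21.2% and -16.2% of its day 9 level in the 3 densest classes, where Dnmt1 KO differed by -13.6%, -21.7% and -15.7%.

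Whether these differences passed a test depended on the scale and on how the spread was estimated. With all 18 libraries, limma called 0 of the 56 sets (0%) at an adjusted p under 0.05, and 4 (7.14%) had an unadjusted p under 0.05. In 18 sets (32.1%) both day 11 libraries were below both of day 9, and in 0 (0%) above. Of the 6 arrangements of the day labels over the 4 libraries, 1 gives such an order in a given direction. The 56 sets divide the same CpGs of the same libraries in several ways, so 18 is not a count of independent differences. In the 10 density classes the lowest adjusted p was 0.524, at 20 to 24 CpGs (standard error 0.849 points). With only the 9 Dnmt1 KO libraries, 3 of 56 sets (5.36%) passed, namely 15 to 19 CpGs (adjusted p = 0.0412), 20 to 24 CpGs (0.0348) and promoters (0.00417). That fit gave every set the same standard error, 0.637 points. From the spread of each set alone in these libraries it was 0.874, 0.815 and 0.944 points for the 3, and none of them passed (adjusted p = 0.696 each). On a log2 scale with all 18 libraries and a spread moderated over the sets, 6 of 56 sets (10.7%) passed, the 4 classes from 15 CpGs upward, promoters (-0.24, adjusted p = 5.07e-08) and the context GCGG. The 3 densest of these classes passed without any one of the 4 libraries, at adjusted p up to 0.00471. The standard error in that fit was 0.0342 with 25 to 34 CpGs and 0.0443 with 35 or more, compared with 0.0578 and 0.0988 from the spread of each class alone. On a log2 scale with all 18 libraries and a spread for each class of its own, the difference was -0.21 ± 0.0466 (SE, adjusted p = 0.0378) with 20 to 24 CpGs and -0.35 ± 0.0578 (SE, adjusted p = 0.0164) with 25 to 34, 2 of the 3 sets that passed (5.36%), while the same test on points passed 0 of 56 (0%). With only the 9 Dnmt1 KO libraries that log2 test passed neither class (adjusted p = 0.449 and 0.303). The calls of the fit of 9 libraries rested on single libraries. Without day 9 replicate 2, day 11 replicate 1 or day 11 replicate 2 the count was 0 of 56, and without day 9 replicate 1 it was 2 density classes and 4 other sets.

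**Figure D1:**
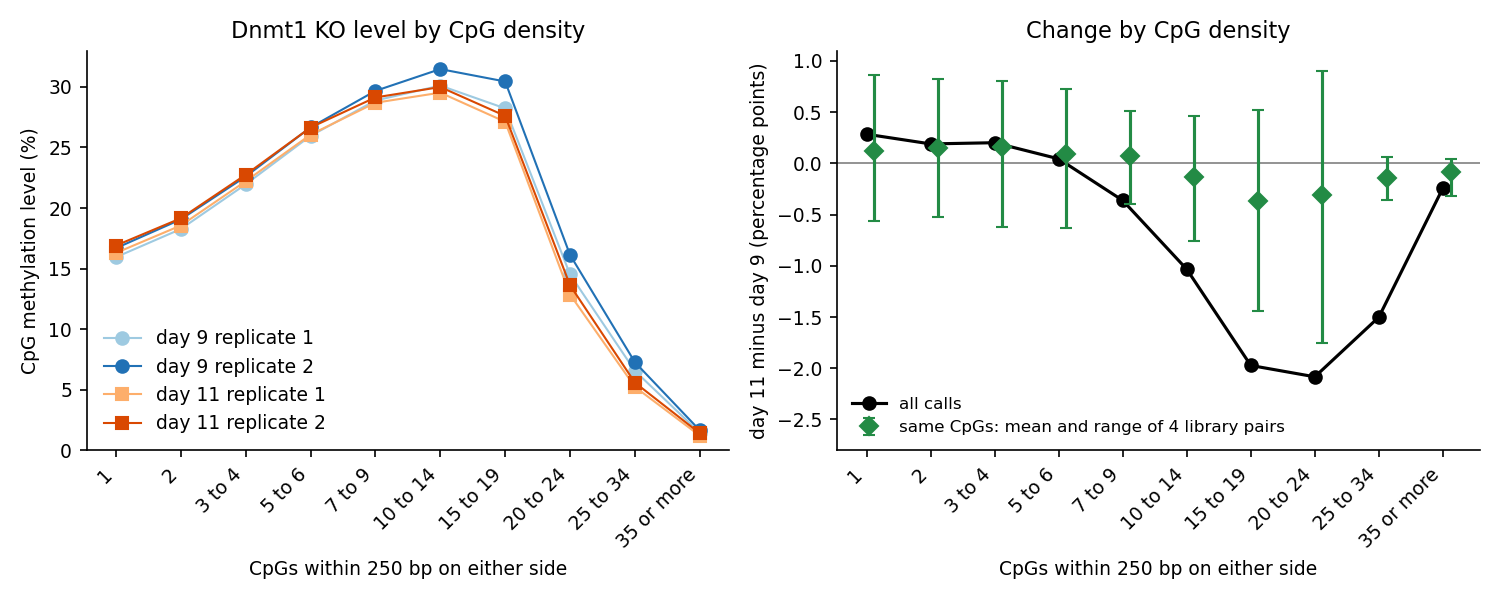
Left, CpG methylation level (%) of each of the 4 Dnmt1 KO libraries against the number of CpGs within 250 bp on either side. Right, day 11 minus day 9 in percentage points over all calls (black) and over CpGs covered in both libraries of a pair (green, mean and range of the 4 pairs); the black line drops to -2.08 points at 20 to 24 CpGs, and the green mean stays between -0.372 and 0.158 points.

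The difference in dense sequence became smaller when the same CpGs were compared. A day 9 and a day 11 library shared only part of their covered CpGs, so each of the 4 pairs of a day 9 with a day 11 library was restricted to the CpGs with a call in both (1869724 to 2217225 autosomal CpGs), each CpG counting equally, without cytosines of over 20 calls. Over the autosomes the mean difference of the 4 pairs was 0.0568 points (range -0.615 to 0.655), compared with -0.450 points over all calls without those cytosines. With 20 to 24 CpGs it was -0.305 points (range -1.75 to 0.906), compared with -2.08 over all calls, and with 25 to 34 it was -0.138 points (range -0.356 to 0.066), compared with -1.5. The CpGs compared were a less methylated part of these 2 classes. Their mean day 9 level was 13.4% with 20 to 24 CpGs and 5.13% with 25 to 34, compared with 15.3% and 6.91% over all calls without those cytosines. On the CpGs that the 2 day 9 libraries shared, replicate 2 was 1.32 points above replicate 1 with 20 to 24 CpGs. The range of the 4 pairs of days included 0 in each of the 10 density classes. The pairs share libraries, so the range describes these 4 libraries and no test was made of it. In control the values also became smaller under this restriction, from -5.73 to -4.07 points over the autosomes (range -5.30 to -2.81), from -7.87 to -2.63 points with 20 to 24 CpGs and from -3.90 to -1.02 points with 25 to 34, but stayed below 0 in 4 of 4 pairs each time. On the 265318 autosomal CpGs with a call in all 4 Dnmt1 KO libraries, Dnmt1 KO differed by 0.0845 points, with overlap. With 15 to 19 CpGs it differed by -0.544 points there (7404 CpGs), without overlap, while the days overlapped in the other density classes.

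The libraries of the days also differed in where their calls fell. CpGs with 35 or more CpGs in the window took 2.13% and 1.83% of autosomal calls at day 9 and 2.98% and 2.91% at day 11. The share of the class of 25 to 34 CpGs was 1.32% and 1.18%, then 1.62% and 1.6%, and that of the class of 20 to 24 CpGs was 1.31% and 1.18%, then 1.47% and 1.45%. In these 3 classes both day 11 libraries had a larger share than both day 9 libraries, and in the classes of 1, 2 and 3 to 4 CpGs both had a smaller share (21.9% and 21.9%, then 21.0% and 21.2%, with 3 to 4). The mean density over calls was 8.14 and 8.05 CpGs at day 9 and 8.76 and 8.67 at day 11. When each library was given the same make-up of exact density and annotation, the difference was -0.291 points over the autosomes and -1.78 points with 20 to 24 CpGs, compared with -0.584 and -2.08 over all calls. The part of the shift in calls in the class differences was not tested further.

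**Figure D2:**
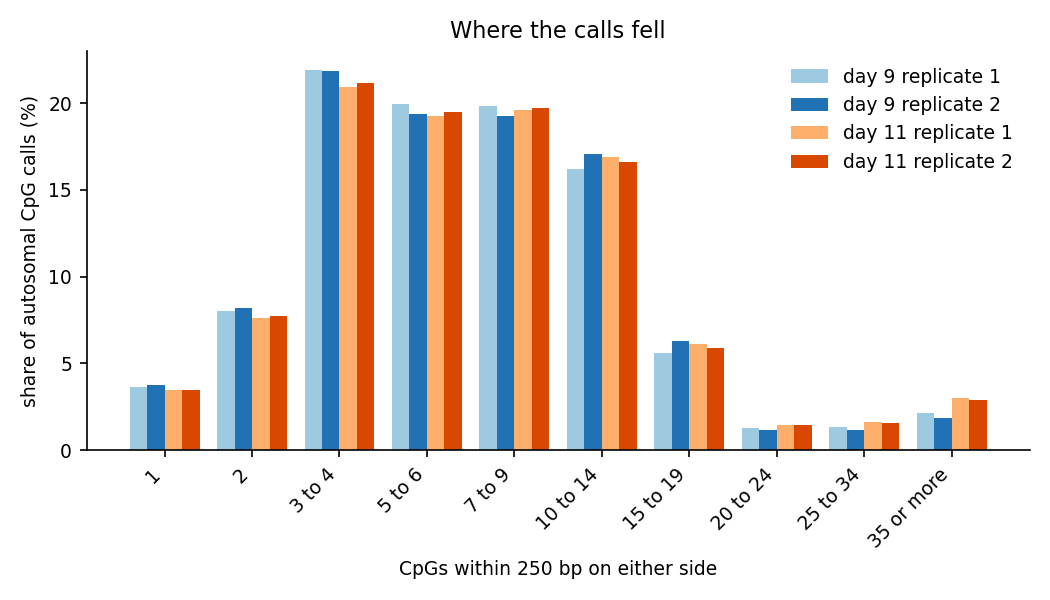
Share of autosomal CpG calls (%) that fell in each CpG density class, for each of the 4 Dnmt1 KO libraries. The bars of day 11 stand above those of day 9 in the 3 densest classes (2.98% and 2.91% against 2.13% and 1.83% with 35 or more CpGs) and below them in the 3 sparsest.

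By annotation, promoters and exons were lower at day 11 over all calls, while introns and intergenic CpGs overlapped. Promoters were the 1 kb upstream of each annotated transcript start, also where that lay inside a gene. They stood at 15.1% and 17.5% at day 9 and at 13.5% and 13.9% at day 11. Exons stood at 29.1% and 31.1%, then 28.3% and 28.7%. In both kinds the day 11 libraries lay below the day 9 libraries, by -2.57 points in promoters (limma over all 18 libraries, adjusted p = 0.434) and by -1.58 points in exons (adjusted p = 0.927). These became -3.76 and -2.61 points without day 9 replicate 1 and -1.38 and -0.548 points without day 9 replicate 2. Introns stood at 26.1% and 27.0%, then 26.2% and 26.7%, and intergenic CpGs at 23.1% and 23.7%, then 22.8% and 23.4%, with overlapping libraries and differences of -0.137 and -0.284 points. Without cytosines of over 20 calls, promoters differed by -1.97 points and exons by -1.2 points. The order of exons and introns rested on those cytosines. Without them exons stood at 23.3% and 24.5%, then 22.3% and 23.1%, below introns at 25.9% and 26.7%, then 25.9% and 26.5%. Promoter means were also lower without them, at 12.8% at day 9 and 10.8% at day 11. On the same CpGs, also without those cytosines, promoters differed by 0.0574 points (range of the 4 pairs -0.317 to 0.453), exons by 0.158 points, introns by 0.311 points and intergenic CpGs by -0.179 points, and the range of the 4 pairs included 0 in each kind.

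The genome was then cut into fixed tiles of 100 kb, and each tile's methylated and unmethylated calls were fitted with a quasi-binomial model. The test covered the 24998 of 26398 tiles (94.7%) for which no library had under 50 calls. The tiles kept their order. The SD of the level over tiles was 6.84 points at day 9 and 6.87 points at day 11, and Pearson's r over tiles was 0.873 between the means of the days, each of 2 libraries, and 0.765 and 0.798 between the single libraries of day 9 and of day 11, which are not like quantities, as a description of tiles that share libraries and base composition. The central 50% of tiles lay between 17.4% and 27.4% at day 9 and between 17% and 27.0% at day 11. Day 11 minus day 9 had a median of -0.433 points, with 5% of tiles below -6.04 and 5% above 5.24 points. It was within 5 points in 85.5% of tiles and beyond 10 points in 0.704%.

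No tile passed the test in either direction (0 of 24998, 0%, at an adjusted p under 0.05). At an unadjusted p under 0.05 there were 783 tiles (3.13%), of which 284 were higher (1.14%) and 499 lower (2%) at day 11. The edgeR quasi-likelihood test also called 0 tiles, with 1007 at an unadjusted p under 0.05, and limma on the percent 0, with 754. With a median of 276 calls per tile and library, the median standard error of a tile's difference was 3.58 points, so a tile had to move by many points to pass. In 3632 tiles (14.5%) both day 11 libraries were above both of day 9, and in 4832 (19.3%) both were below. Each of these orders is 1 of the 6 arrangements of the day labels over the 4 libraries. The same model called 2200 tiles (8.8%) between day 9 and day 11 in control, all lower at day 11, at a median change over all tiles of -4.63 points. In 30 tiles (0.12%) the change differed between the genotypes, and in all 30 Dnmt1 KO minus control was above 0.

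**Figure D3:**
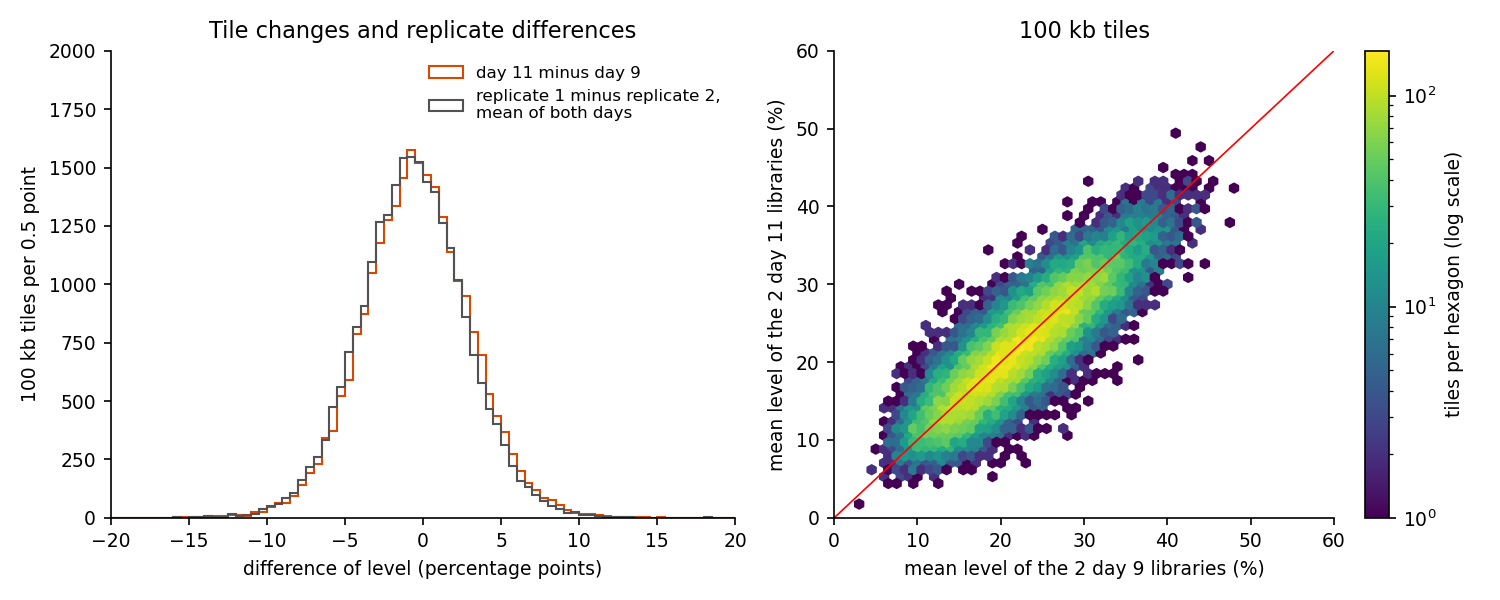
Left, number of 100 kb tiles per 0.5 point of difference, for day 11 minus day 9 (orange) and for replicate 1 minus replicate 2 averaged over both days (grey). The outlines nearly coincide, with an SD over tiles of 3.46 points between the days. Right, level of each tile at day 11 against day 9 (means of 2 libraries, %, colour gives the number of tiles on a log scale, red line marks equality).

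Most of the variation in tile changes was of the size that replicates gave. The SD over tiles of day 11 minus day 9 was 3.46 points, and the differences between the 2 libraries of a day predicted 3.39 points, which leaves an SD of 0.672 points shared by the libraries of a day, or 3.77% of the variance. In 1 Mb tiles the shared SD was 0.458 points (13.9% of the variance). Control had a shared SD of 1.63 points in 100 kb tiles (16.3%) and of 1.55 points in 1 Mb tiles (56.2%). Changes of neighbouring tiles were nearly unrelated in Dnmt1 KO (r = 0.026 between adjacent tiles, 24998 tiles), whereas their levels were related (r = 0.665), and in control the changes of adjacent tiles had r = 0.14. The change of a tile in Dnmt1 KO had r = -0.0437 with its mean CpG density, 0.0174 with its level at day 6, -0.0163 with the log2 ratio of calls between the days and 0.0207 with its change in control.

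The 10 tiles with the smallest p are given as examples, 5 in each direction, and none of them was called (adjusted p = 1 in all 10). The tile on chromosome 11 from 8300001 to 8400000, in Tns3, which encodes a focal adhesion protein of the tensin family, stood at 19.6% and 21.3% at day 9 and at 30.2% and 36% at day 11, a difference of 12.9 ± 2.59 points (SE, unadjusted p = 6.56e-05). The days did not overlap, but at day 6 the tile was at 29.4%, just below the lower day 11 library. On chromosome 2 from 65700001, in Csrnp3, the level was 18.1% and 20.8%, then 30.4% and 29.3%. On chromosome 8 from 63800001, in Sh3rf1, which encodes a scaffold protein with ubiquitin ligase activity, it was 29.9% and 31.1%, then 44.1% and 43.2%. These 2 tiles were at 23.8% and 38.1% at day 6, between the levels of both days. The other tiles higher at day 11 lay on chromosome 4 from 132700001 over Wasf2, Gpr3, Cd164l2 and Map3k6 (11.15% and 13.1%, then 18.1% and 18.9%) and on chromosome 11 from 117700001 over Afmid, Birc5, Cldn27 and Tha1 (17.1% and 13.1%, then 22.3% and 24.7%).

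Among the tiles lower at day 11, that on chromosome 5 from 112800001 to 112900000 held Hps4, Asphd2, Sez6l and Gm6588, and Hps4 takes part in the formation of lysosome-related organelles. It stood at 31.2% and 26.2% at day 9 and at 15.4% and 16.9% at day 11, a difference of -13.0 ± 3.1 points (SE, unadjusted p = 0.000364), with 25.5% at day 6. The tile on chromosome 10 from 94200001, over Ccdc41 and Plxnc1, stood at 46.8% and 38.9%, then 30.8% and 30.8%. That on chromosome 6 from 145400001, in Ifltd1, stood at 46.3% and 43.2%, then 32.7% and 33.2%. Each of these had the day 6 level on the side of day 9 or between the days, at 35.9% and 46.1% for the latter pair. A tile on chromosome 7 from 3000001, with no protein-coding gene, stood at 22.6% and 33.0%, then 14.8% and 16.9%, and that on chromosome 13 from 14400001, in Hecw1, which encodes a HECT-type ubiquitin ligase, at 20.1% and 20.9%, then 11.165% and 7.98%. Control differed in these 10 tiles by other amounts, as at Tns3, where it stood at 78.8% at day 9 and 74.6% at day 11.

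**Figure D4:**
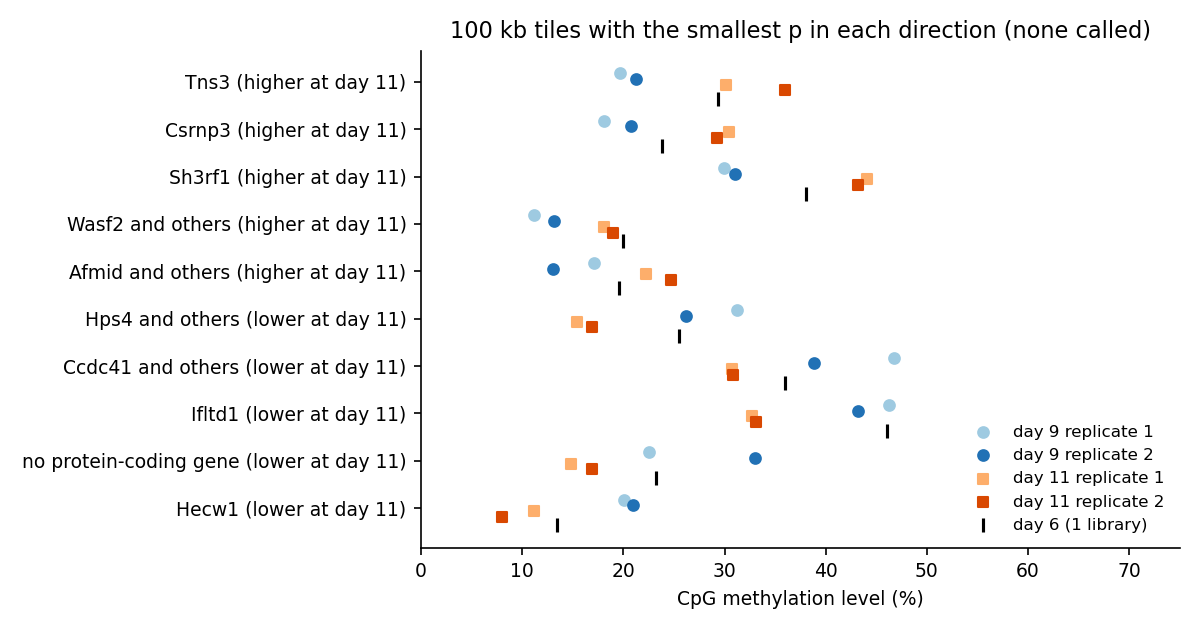
CpG methylation level (%) of the 10 tiles of 100 kb with the smallest p, in the 4 Dnmt1 KO libraries, with the single day 6 library as a black tick. The days do not overlap in any of them, as their choice by p makes likely, and at Tns3 the day 6 level of 29.4% lies beside the day 11 level of 30.2%.

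A fit of the 4 libraries alone called 2 tiles (0.008%), named here after their values were seen. The number of tiles called by that fit changed with the library left out. The tile over Hps4 was one, with an adjusted p of 0.0302. The other, on chromosome 2 from 98500001 to 98600000, had 371494 to 466610 calls per library on 460 CpGs, far above the median tile, and its levels of 36% and 36.4%, then 34.6% and 35.6%, differed by -1.16 points (adjusted p = 2.21e-10 in that fit and 1 in the fit of all libraries). In 1 Mb tiles and the 9 Dnmt1 KO libraries, 2 of 2577 tiles (0.0776%) passed, the one on chromosome 2 from 98000001 that contains this stretch and one on chromosome 17 from 39000001, at 3.56% and 5.35%, then 2.72% and 3.05% (-1.56 points, adjusted p = 0.00143). These calls rested on single libraries. Without day 9 replicate 2 the difference on chromosome 17 was -0.677 points and neither 1 Mb tile passed, nor did either without day 11 replicate 1, when that on chromosome 2 was -0.661 points, and without day 9 replicate 1 the difference on chromosome 17 was -2.46 points and it alone passed. In the fit of the 4 libraries, the call of the tile over Hps4 depended on which library was left out, at differences of -15.1 to -10.1 points. The 100 kb tile on chromosome 2 then differed by -1.63 to -0.664 points, the latter without day 11 replicate 1. Its own dispersion in the fit of the 4 libraries was 51.9, while the median moderated dispersion in the fit of all libraries was 2.02. Dispersions were moderated over tiles, so at its many calls the small adjusted p of this tile does not measure agreement between libraries.

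Chromosome means were slightly lower at day 11. Day 11 minus day 9 was below 0 on all 20 chromosomes, between -1.26 points on chromosome 17 and -0.196 points on chromosome 3, and the libraries overlapped on 17 of them. This rested in part on day 9 replicate 2: when it was left out, the difference turned above 0 on chromosomes 3, 4, 8, 9, 16, 18 and 19. Chromosome 17 stood at 23.2% and 24% at day 9 and at 21.9% and 22.7% at day 11, without overlap. Without cytosines of over 20 calls its difference was -0.785 points, with overlap, and on the same CpGs, also without those cytosines, it was 0.158 points (range of the 4 pairs -0.53 to 0.972). Over all calls chromosomes 2 and 9 had the highest levels, with 28.6% and 30.2%, then 28.3% and 28.7% on chromosome 2, and 28.2% and 30.0%, then 28.5% and 28.5% on chromosome 9. This order rested on cytosines of over 20 calls. Without them chromosome 2 stood at 23.6% and 24.2%, then 23.3% and 23.9%, and chromosome 13 had the highest mean of both days, at 25.3% and 24.8%, next to chromosome 9 at 25.1% and 24.6%. The X chromosome had the lowest, at 19.3% and 20.4%, then 18.6% and 19%, with no overlap between the days. Its difference of -1.09 points (limma, adjusted p = 0.927) was -0.695 points on the same CpGs, with a range of the 4 pairs from -1.46 to -0.103, below 0 in 4 of 4. Over all calls it was -1.62 points without day 9 replicate 1 and -0.565 points without day 9 replicate 2. On each of the 19 autosomes CpGs with 15 to 24 CpGs in the window were lower at day 11 (-2.75 to -1.08 points, without overlap on 18), and on 16 of 19 those with under 10 were higher by up to 0.335 points, with libraries overlapping on all 19. This split was chosen after the class differences were seen, and the chromosomes share their libraries, so it is given as a description with no test. The higher values in sparse CpGs depended on day 9 replicate 1. Without that library the differences over all autosomes were -0.0865 points with 1 CpG, -0.208 with 2, -0.12 with 3 to 4, -0.306 with 5 to 6 and -0.76 with 7 to 9.

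**Figure D5:**
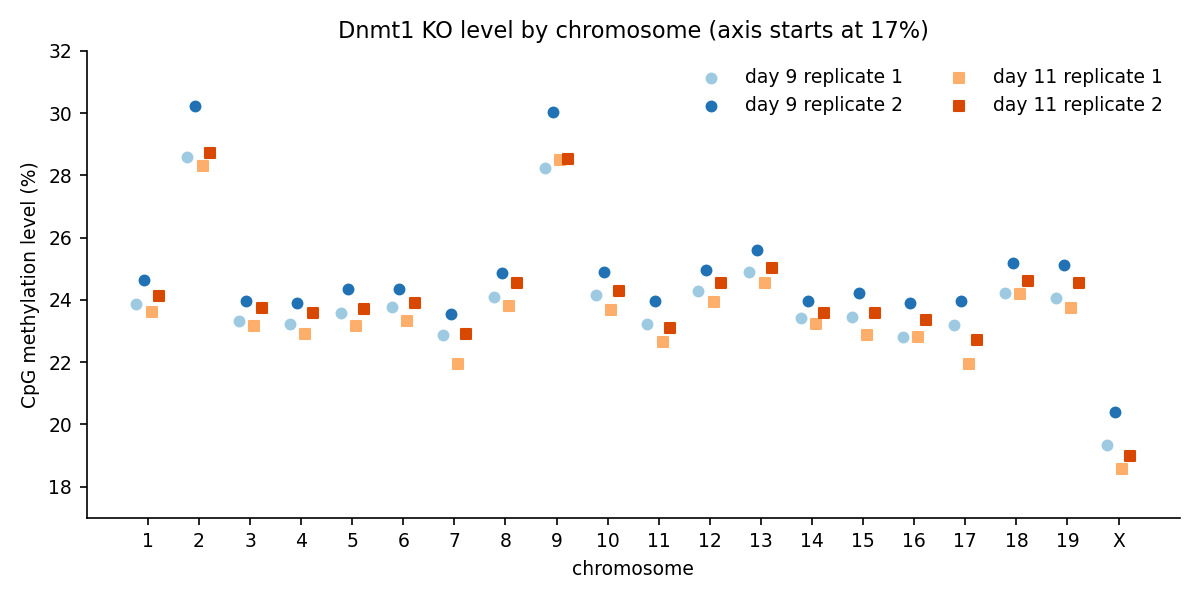
CpG methylation level (%) of each chromosome in the 4 Dnmt1 KO libraries. The X chromosome lies lowest (18.6% to 20.4%) and, over all calls, chromosomes 2 and 9 highest (28.2% to 30.2%), which does not hold for chromosome 2 without cytosines of over 20 calls (23.3% to 24.2%). Over all calls day 9 replicate 2 is the highest library on every chromosome.

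Levels differed more between sequence contexts than between the days. Of the 16 contexts, written as the base before CG, CG and the base after it on the strand read, TCGC stood at 28.8% and 30.5%, then 29.3% and 29.5%, and ACGC at 29.0% and 29.5%, then 29.0% and 29.5%. The lowest was GCGG, at 20.1% and 20.9% at day 9 and 18.5% and 19% at day 11. Without cytosines of over 20 calls ACGC was the highest, while TCGC stood at 25.6% and 26.2%, then 25.7% and 26.2%, below CCGC, and at day 9 the mean of TCGT (20.1%) lay below that of GCGG (20.6%). Of the contexts, 15 were lower at day 11, and the differences ran from -1.79 points for GCGG, without overlap (limma, adjusted p = 0.669), to 0.0232 points for ACGC, with overlap. The count of 15 rested in part on day 9 replicate 2. When that library was left out, some of these contexts turned above 0 and others stayed below. TCGC had a day 11 mean of 29.4%, against 28.8% in day 9 replicate 1, while GCGG had 18.7% against 20.1%. Without cytosines of over 20 calls 12 contexts were lower and 4 higher, by at most 0.158 points. Where fewer than 10 CpGs lay in the window, CpGs followed by C differed by 0.628 points and by T 0.219. Those followed by A differed by 0.0147 and by G -0.412 points. None of the 16 contexts passed in limma there (adjusted p = 0.983 in each). In 4 of these 16 both day 11 libraries lay above both of day 9, at 0.516 to 0.768 points. The highest was TCGC, at 26.6% and 27.3%, then 27.5% and 27.9%. In 1, GCGG, both lay below, at -0.85 points. Each such order is 1 of the 6 arrangements of the day labels, and these 16 sparse subsets are not among the 56 sets. After the level of the library was subtracted, 3 contexts passed in limma, ACGC (0.607 points, adjusted p = 0.0373), CCGT (0.575 points, adjusted p = 0.0373) and GCGG (-1.2 points, adjusted p = 0.0322), which is a change relative to the rest of the genome. With the same subtraction and only the 9 Dnmt1 KO libraries none of the 3 passed (adjusted p = 0.124, 0.124 and 0.111).

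Tiles of low and of high level gave differences close to each other. With tiles divided into 5 equal groups by their Dnmt1 KO level at day 6, which has no part in the contrast, the group with the lowest day 6 level stood at 14.7% and 15.5% at day 9 and 14.3% and 14.9% at day 11. The group with the highest stood at 32.5% and 33.4%, then 32.1% and 32.5%. The differences of the 5 groups lay between -0.641 and -0.333 points, without overlap in the highest group alone. When day 9 replicate 2 was left out, the second and middle groups turned above 0. Their day 11 means were 19.2% and 22.4%, against 19.1% and 22.3% in day 9 replicate 1. Without cytosines of over 20 calls the days overlapped in all 5 groups. None passed in limma (adjusted p = 0.927 in each).

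Among gene bodies, 10849 of 37252 genes reached 50 calls in each library. None was called (0%), with 296 (2.73%) at an unadjusted p under 0.05, of which 140 were higher and 156 lower at day 11. The median difference was -0.0671 points and the median standard error 5.04 points. Tns3 (ENSMUSG00000020422.7, chromosome 11, 8331655 to 8564538), which holds the tile described above, stood at 19.7% and 22.2% at day 9 and at 28.5% and 27.8% at day 11. Rai14, which encodes an actin-associated ankyrin repeat protein, stood at 18.9% and 22%, then 28.1% and 30.6%, and Gpd1l, related to glycerol-3-phosphate dehydrogenase, at 13.3% and 22.4%, then 36.7% and 32.6%. The days did not overlap in these 3 genes, as their choice by p makes likely and as held for 1838 gene bodies in this direction (16.9%). They were at 24.7%, 22.8% and 27.9% at day 6, and the other gene bodies with the smallest p among those higher at day 11 were 4930444A02Rik and Pfdn1, a prefoldin subunit.

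Of the 5 gene bodies with the smallest p among those lower at day 11, Lars2, the mitochondrial leucyl-tRNA synthetase, had the most calls and stood at 11.13% and 18.1% at day 9 and at 7.87% and 8.59% at day 11. Hecw1 stood at 20.7% and 21.7%, then 14.3% and 14.1%. The libraries did not overlap in these genes, which were chosen by p, nor in 1897 gene bodies in this direction (17.5%), and their adjusted p was 1. Hhipl1 and Grm4, a metabotropic glutamate receptor, were also among the 5.

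The fixed gene lists held no called gene body and none at an unadjusted p under 0.05. Of the DNA methylation enzymes, 7 of 9 were tested, 2 higher and 5 lower, with a median of -1.72 points against -0.0671 over all gene bodies. Tet1, a dioxygenase that oxidises methylcytosine, stood at 17.8% and 18.9%, then 18.9% and 18.9%, and Dnmt3a at 26.4% and 28.4%, then 25.1% and 28.6%. Both overlapped between the days. Of the pluripotency genes, 5 of 15 were tested, 3 higher and 2 lower, with a median of 3.24 points, and Esrrb, an orphan nuclear receptor of the naive pluripotency network, stood at 20.7% and 18.8%, then 21.1% and 25.8%.

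Of the germline genes, which are silenced by promoter methylation in most other cells, 8 of 15 were tested, 4 higher and 4 lower, with a median of 0.91 points. Tdrd1, a tudor domain protein of the piRNA pathway, stood at 36% and 40.8%, then 47.7% and 36.9%, which overlap. The maternally methylated imprinted genes had 12 of 15 tested, 4 higher and 8 lower (median -1.59 points), and Igf2r stood at 32% and 35.2%, then 28.8% and 30.2%, without overlap (unadjusted p = 0.313). Of 5 paternally methylated imprinted genes only Rasgrf1 and the non-coding RNA gene Meg3 were tested, at differences of 2.06 and -8.04 points. Of the genes for repressors and RNA interference, 5 of 9 were tested, 3 higher and 2 lower (median 1.41 points), and Dicer1, the RNase that makes small interfering RNAs, stood at 37.0% and 40.3%, then 34.7% and 31.3%, with an unadjusted p of 0.163.

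Around the gene starts of these lists (2000 bp on either side, 98 to 915 calls per list and library) few calls stand behind each value, and how often gene starts in general overlapped was not computed, so nothing is read from overlap here. The starts of the pluripotency genes stood at 6.19% and 3.45% at day 9 and 2.62% and 4.72% at day 11, and those of the DNA methylation enzymes at 5.38% and 5.38%, then 6.59% and 7.14%. Germline gene starts stood at 22% and 24.4%, then 19.7% and 18.9%. Control stood at 62.5% and 50.3% at the germline starts on the same days. The maternally methylated list stood at 8.91% and 3.51%, then 6.32% and 5.99%, the paternally methylated list at 22.4% and 9.02%, then 4.23% and 11%, and the repressors at 3.09% and 4.41%, then 4.32% and 4.58%.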

How the data were processed

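The 4 Dnmt1 KO libraries of days 9 and 11 were compared within a whole-genome bisulfite sequencing series of 18. Per the methods, adaptors were trimmed with Trim Galore, read pairs were mapped to NCBIM37 with Bismark (version 0.12.3 per the labels, a later one in the study's methods), and duplicates were removed before calling. Each deposited table lists counts of methylated and of unmethylated calls for a cytosine, and a deposited percent of methylated calls, which was within 0.001 points of the share of the counts in every entry and was not used further. The counts were not normalized, and cytosines with a single call are listed, so the coverage minimum that the study's methods give for averages was not applied to these tables. About 0.11% of the cytosines lay outside a CpG of NCBIM37 and were left out, and both strands were added up. Duplicates were removed by position only, so the limits given for counts of 0 cover counting error only, while standard errors and the interval of the autosomal difference come from the spread between libraries.

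Groups, days and replicate numbers came from the labels. Tiles and gene bodies (GENCODE models, promoters left out) in which no library had under 50 calls were fitted in R 4.3.3 by a quasi-binomial model of counts, with a level for each of 10 groups of genotype and day (8 residual degrees of freedom, dispersion moderated with limma 3.58.1). This assumes that the lone day 6 libraries vary like the others. The levels of 56 sets of CpGs (autosomes, 10 density classes, 16 contexts, 4 annotations, 20 chromosomes, 5 groups by day 6 level) were fitted with limma. A Benjamini-Hochberg adjusted p under 0.05 was called. Alternatives included edgeR 4.0.16, other tile sizes, minimums, scales and libraries in the fit, and comparisons of the same CpGs. The members and lists were chosen with earlier results of these data known. Named were the 5 tiles and gene bodies with the smallest p in each direction, every density class, the extreme contexts and chromosomes, X, and the members with most calls of 6 lists; 1 of these gene bodies is not reported here. Example stretches of 300 bases were the deepest of their kind outside exons with at most 4 calls per CpG, and chromosome 18 was left out of this choice. Scripts were tested on simulated data. Whether replicate numbers pair the libraries was not settled. Over tiles, day 11 minus day 9 of replicate 1 and of replicate 2 had r = 0.0259, and the same for other-numbered pairs 0.0127. Replicate 1 minus replicate 2 at day 9 and at day 11 had r = 0.0132. Tile differences were mostly of the size that replicates gave, so such values near 0 cannot decide it.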

Additional observations from a re-analysis of the deposited data

Results flagged for a closer look

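Day 11 minus day 9 differed between Dnmt1 KO and control in limma's test of that difference (adjusted p under 0.05), each time with control lower at day 11, while Dnmt1 KO differed by -2.57 to 0.285 points in the sets named here. Dnmt1 KO minus control was 4.83 points over the autosomes. By CpG density it was 4.48 points with 1 CpG in the window, 4.60 with 2, 4.59 with 3 to 4, 4.74 with 5 to 6, 4.48 with 7 to 9, 3.45 with 10 to 14, 2.71 with 15 to 19, 5.78 with 20 to 24 and 2.40 with 25 to 34. These are values over all calls. Without cytosines of over 20 calls it was 4.79 with 10 to 14 and 5.29 with 15 to 19. On the same CpGs Dnmt1 KO differed by -0.305 points and control by -2.63 with 20 to 24, and by -0.138 and -1.02 with 25 to 34. By annotation it was 4.45 points in intergenic CpGs, 5.14 in introns and 5.48 in promoters, and on the X chromosome it was 4.05 points. On the same CpGs promoters differed by 0.0574 points in Dnmt1 KO and by -2.31 points in control, where control differed by -8.15 points over all calls without cytosines of over 20 calls. In 100 kb tiles the change differed between the genotypes in 30 tiles, all lower at day 11 in control, at differences of -2.76 to 9.02 points in Dnmt1 KO. Control started from 76.8% and Dnmt1 KO from 25.1%, and on a log2 scale 0 of 56 sets differed at an adjusted p under 0.05, but without Dnmt1 KO day 9 replicate 2 this was 7 of the 10 density classes (adjusted p 0.0124 to 0.0477). The genotypes may also differ in cell line, which cannot be told apart from the deletion here.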

How the results depend on the processing

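The counts of called 100 kb tiles and gene bodies were 0 and the autosomal difference stayed below 0 under every alternative run, with these exceptions: a fit of the 4 libraries alone called 2 tiles, 1 Mb tiles with only the 9 Dnmt1 KO libraries gave 2, and on the same CpGs the autosomal difference was 0.0568 points, or 0.0845 points on CpGs with a call in all 4 libraries. The 2 fits with called tiles also called tiles in runs with a library left out. Leaving out each library in turn moved the autosomal difference between -1.11 and -0.0575 points and the difference between the genotypes between 3.97 and 5.69 points, and, on points with all other libraries in the fit, left the counts of called tiles, classes and gene bodies at 0. On a log2 scale it left 3 or 4 density classes. Among the density classes, the fit of the 9 Dnmt1 KO libraries called 2, and 1 without cytosines of over 20 calls. Those 2 did not pass in the 9 with a spread for each class (adjusted p = 0.696 each). On a log2 scale 4 were called with all libraries (15 CpGs or more), 3 with the 9 and 2 with all libraries and a spread for each class. Those last 2 did not pass with the 9 and a spread for each class (adjusted p = 0.449 and 0.303). Among the other sets the replicate block called 1 (promoters, adjusted p = 0.0176), the fit of the 9 libraries 1, and 1 without cytosines of over 20 calls, the centred fit 3 (0 of these with the 9), the log2 fits 2 with all libraries, 2 with the 9, and 1 with all libraries and a spread for each set. That last one, GCGG, did not pass with the 9 and a spread for each set (adjusted p = 0.303). The replicate block changed no other call. The log2 scale, a spread for each class or set, the comparison on the same CpGs and every combination with the fit of the 9 libraries were chosen after the data were seen.

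Of 295 values of 35 single results, 25 turned in sign, all of differences that were not called. Leaving out each library in turn gave -0.0865 to 0.657 points with 1 CpG, -0.208 to 0.588 with 2, -0.12 to 0.525 with 3 to 4, -0.306 to 0.395 with 5 to 6, -0.76 to 0.0367 with 7 to 9, -0.594 to 0.0263 in intergenic CpGs and -0.577 to 0.303 in introns, each lowest without day 9 replicate 1 and highest without day 9 replicate 2. With the library level subtracted, in all libraries as in the 9, the class of 7 to 9 was at 0.223, that of 35 or more at 0.343, intergenic CpGs at 0.3 and introns at 0.447. A density window of 100 bp gave -0.188, -0.929 and 0.0947 for 3 to 4, 5 to 6 and 35 or more CpGs, and one of 500 bp gave -0.00217 for 2 and 0.174 for 7 to 9. The causes were not tested. A class of repeat-masked CpGs was not run, since the genome used here was not soft-masked, and the spread of tile changes could not be computed without a library, as it needs both of a day. At this depth, differences of single tiles and genes under several points were not detectable.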
